A study of Mus musculus with 12 samples.

Results

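The genes described here are 10 that encode contractile and calcium-handling proteins of slow and fast muscle fibres. The slow-fibre genes were Myh7, Tnni1, Tnnt1, Tnnc1, Myl2, Myl3 and Atp2a2, and the fast-fibre genes were the myosin heavy chain genes Myh1, Myh2 and Myh4. They were picked by gene name, not by a threshold on measured values. Earlier results of these data were known when they and the gene lists used below were chosen, so counts of called genes are descriptions. Each had 1 row of the expression table, and they are 10 of the 22180 genes with a row of their own. All 10 lay above the table's median value (4.56, log2 expression) on 12 of 12 arrays, so all 10 were among the 13747 genes tested.

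The arrays measured RNA of the plantaris, a calf muscle, of male mice aged 12 weeks, with 3 arrays in each of 4 groups. The groups were REDD1 knockout exercised, REDD1 knockout sedentary, wild type exercised and wild type sedentary, written KO and WT below. Exercised mice did 1 aerobic session, their muscle was taken 1 h after it, and all mice of the 4 groups had gone without food for 3 h before the time of exercise. The labels name a mouse as the source of each array and state no pooling, and they do not say how the knockout was made or in which cells. P-values measure the spread between these arrays.

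A muscle fibre contracts when calcium binds troponin on the thin filament and frees it to meet myosin heads of the thick filament. Slow fibres carry a slow set of these proteins, resist fatigue and are the main fibres of postural muscles, while fast fibres contract and relax quickly. The plantaris of rodents consists largely of fast fibres with a small share of slow ones. In RNA from whole muscle, fewer slow fibres and less slow-type RNA per fibre cannot be told apart.

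Ddit4, the gene that encodes REDD1, was at 6.46, 5.72 and 6.77 in KO exercised, 5.32, 5.44 and 5.08 in KO sedentary, 9.05, 8.40 and 8.62 in WT exercised and 6.13, 5.83 and 6.02 in WT sedentary arrays (log2 expression). The KO arrays lay below the WT arrays of the same condition without overlap, while KO exercised replicates 1 and 3 lay above all WT sedentary arrays. For exercise in KO, the log2 fold change of Ddit4 was 1.04 (SE 0.22, limma adjusted p = 0.0679). Array medians lay between 4.52 and 4.6. Skeletal muscle markers were bright on every array: Ckm, the muscle creatine kinase, lay between 13.1 and 13.3 and the skeletal actin gene Acta1 between 13.5 and 13.6. The heart also uses Myh7, Myl2, Myl3, Tnnc1 and Atp2a2, so 8 genes that define heart muscle were checked. The natriuretic peptide gene Nppa lay between 4.21 and 4.79, Nppb between 4.06 and 4.67 and the atrial light chain gene Myl7 between 3.47 and 4.40, around or below the table median. Above that median on 12 of 12 arrays were the atrial light chain gene Myl4 (5.45 to 6.53) and the transcription factor genes Gata4 (4.73 to 5.30) and Nkx2-5 (5.25 to 5.92), and on 11 of 12 Myh6 (4.44 to 5.10) and Tnni3 (4.48 to 5.41). Myl7 was too dim to be tested and is left out of the sum that follows. The log2 summed signal of the other 7 heart genes was 7.89 to 8.01 in KO exercised, 7.90 to 8.13 in KO sedentary, 7.68 to 8.05 in WT exercised and 7.70 to 8.0 in WT sedentary arrays. The part of the heart genes in the slow genes' levels was not tested. KO sedentary replicate 3 was the highest array for matrix and fibroblast markers, and WT exercised replicate 1 for Schwann cell markers. Schwann cell markers were also high in KO sedentary replicate 3 and KO exercised replicate 2.

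Myh7, the heavy chain gene of slow myosin, showed the widest range of the 10 genes. Its log2 levels were 7.31, 6.38 and 7.41 in KO exercised, 6.01, 5.58 and 7.78 in KO sedentary, 6.09, 5.99 and 6.26 in WT exercised and 6.44, 6.48 and 5.51 in WT sedentary arrays. The highest array was a KO sedentary one and so was the second lowest, so that group spanned nearly the whole range, while the WT exercised arrays lay close together. The mean was 7.04 ± 0.57 in KO exercised, 6.46 ± 1.16 in KO sedentary, 6.11 ± 0.14 in WT exercised and 6.14 ± 0.55 in WT sedentary arrays (SD, n = 3 each). The KO exercised arrays lay above all WT exercised arrays, and all other pairs of groups compared overlapped.

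The troponin genes of slow fibres moved with Myh7 from array to array. Tnni1 encodes slow troponin I, the inhibitory subunit, and was at 6.28, 5.92 and 7.05 in KO exercised, 5.62, 5.5 and 7.0 in KO sedentary, 6.04, 5.99 and 5.99 in WT exercised and 5.68, 5.94 and 5.55 in WT sedentary arrays (log2). KO exercised replicate 3 and KO sedentary replicate 3 were the highest, and the KO groups overlapped every group. Tnnt1 encodes slow troponin T, which ties the complex to tropomyosin, and was at 6.80, 6.25 and 6.97 in KO exercised, 5.96, 5.94 and 7.13 in KO sedentary, 5.89, 6.05 and 5.95 in WT exercised and 6.29, 6.24 and 6.02 in WT sedentary arrays. Its KO exercised arrays lay above the WT exercised arrays, and again 1 KO sedentary array was the highest of all. Tnnc1 encodes the calcium-binding troponin C of slow and cardiac muscle and was at 7.35, 6.51 and 7.82 in KO exercised, 6.60, 6.16 and 7.45 in KO sedentary, 6.83, 6.56 and 6.79 in WT exercised and 6.78, 6.77 and 5.87 in WT sedentary arrays. All 4 groups of Tnnc1 overlapped, and WT sedentary replicate 3 was the lowest array, as it was for Myh7.

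Atp2a2 encodes SERCA2, the calcium pump of slow fibres, which returns calcium to the sarcoplasmic reticulum. It was at 9.04, 8.72 and 9.60 in KO exercised, 8.49, 8.17 and 9.69 in KO sedentary, 8.66, 8.85 and 8.89 in WT exercised and 9.14, 9.07 and 8.62 in WT sedentary arrays (log2). The highest and the lowest array were both KO sedentary, and all groups overlapped.

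The slow light chains followed this pattern less closely. Myl2, the regulatory light chain gene, was at 6.16, 5.95 and 6.21 in KO exercised, 6.09, 5.55 and 6.22 in KO sedentary, 6.11, 6.41 and 6.28 in WT exercised and 6.38, 6.21 and 5.95 in WT sedentary arrays (log2). Myl3, the essential light chain gene, was at 6.46, 6.02 and 6.86 in KO exercised, 6.21, 5.10 and 6.44 in KO sedentary, 6.39, 6.14 and 6.42 in WT exercised and 6.58, 6.32 and 6.22 in WT sedentary arrays. KO sedentary replicate 2 was the lowest array for both, and the highest Myl2 array was a WT exercised one.

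The fast myosin genes were nearly level over all arrays. Myh4, the heavy chain gene of type 2B fibres, was at 13.37, 13.36 and 13.41 in KO exercised, 13.38, 13.41 and 13.32 in KO sedentary, 13.28, 13.35 and 13.44 in WT exercised and 13.47, 13.38 and 13.39 in WT sedentary arrays (log2). Myh1, of type 2X fibres, lay between 12.55 and 12.87, and Myh2, of type 2A fibres, between 11.71 and 12.11. From the lowest to the highest array this is 1.14-fold for Myh4, 1.24-fold for Myh1 and 1.32-fold for Myh2, against 4.82-fold for Myh7, taking the deposited scale as log2. Myh2, Myh1 and Myh4 lie side by side on chromosome 11 (GRCm38.p6, plus strand), at chr11:67171027-67197517, chr11:67200102-67224577 and chr11:67237812-67260447, and are close paralogs. The sources used here do not say whether the array's probes tell them apart. Of the genes tested, 7 had a higher mean signal than Myh4 and 30 a higher one than Myh1. The highest value in the whole table was 13.86. Whether signals this near the top of the scale understate differences was not tested, so these small fold values may not show stable RNA levels.

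**Figure D1:**
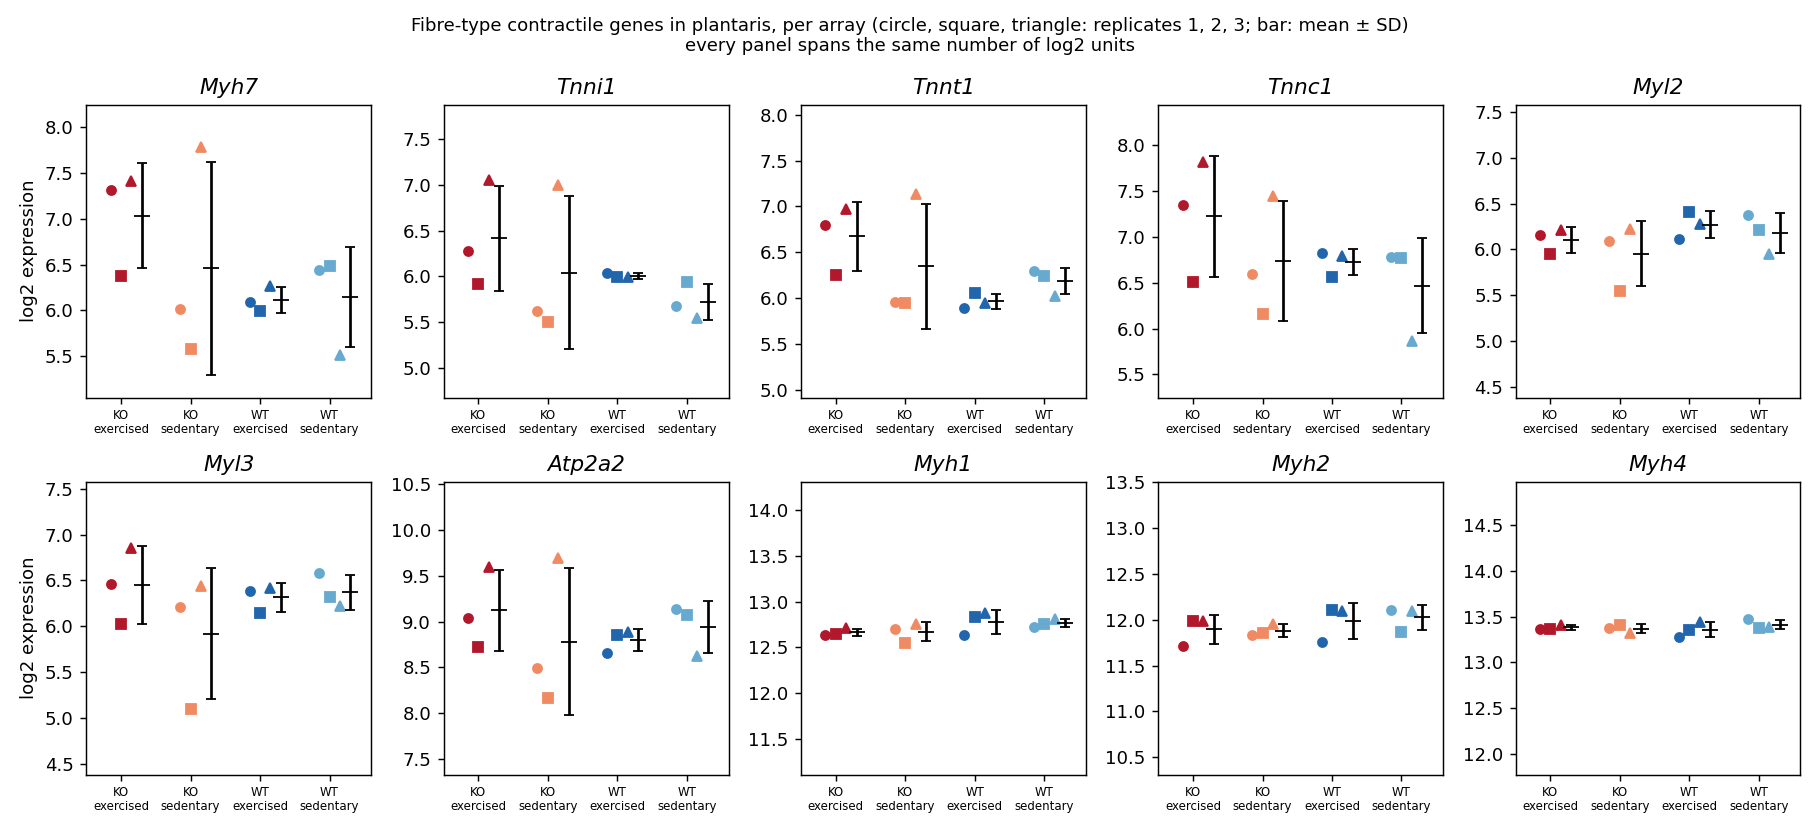
Log2 expression of the 10 genes on each array, by group, with replicates 1, 2 and 3 as circle, square and triangle and the group mean ± SD (n = 3) as a bar. Each panel spans the same number of log2 units. The 3 KO sedentary points spread widely for Myh7 (5.58 to 7.78) while those of Myh4 stay between 13.32 and 13.41.

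Promoter windows of 4 slow genes that moved together are shown with that of the fast gene Myh4, with short motifs known from muscle genes marked. In RefSeq's GRCm38.p6 windows of 300 bases (250 before to 50 after a gene's start), 9 of the 10 genes had a window. The name without one is Atp2a2. Capitals mark matches, on either strand, to the MCAT motif bound by TEAD factors (CATTCC, or its reverse complement), to the CACC box (CCACCC, or its reverse complement) and to the MEF2 motif. In Tnnc1, 2 CACC boxes overlap. The windows are Myh7 at chr14:54994577-54994876 (minus strand), Tnni1 at chr1:135799171-135799470 (plus), Tnnt1 at chr7:4515926-4516225 (minus), Tnnc1 at chr14:31208062-31208361 (plus) and Myh4 at chr11:67237562-67237861 (plus). For Myh7 and Tnni1 the first of 2 windows is shown.
Myh7: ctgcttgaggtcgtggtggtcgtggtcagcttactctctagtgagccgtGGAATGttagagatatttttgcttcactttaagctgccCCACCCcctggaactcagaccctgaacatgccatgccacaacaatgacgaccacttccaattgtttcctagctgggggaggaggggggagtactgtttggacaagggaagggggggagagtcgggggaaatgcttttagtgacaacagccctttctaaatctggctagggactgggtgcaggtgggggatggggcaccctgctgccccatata
Tnni1: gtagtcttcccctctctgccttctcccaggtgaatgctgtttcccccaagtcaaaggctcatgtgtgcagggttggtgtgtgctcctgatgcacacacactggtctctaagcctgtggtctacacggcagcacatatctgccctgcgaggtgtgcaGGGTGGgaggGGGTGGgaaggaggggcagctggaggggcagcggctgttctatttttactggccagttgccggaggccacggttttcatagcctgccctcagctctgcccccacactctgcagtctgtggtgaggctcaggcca
Tnnt1: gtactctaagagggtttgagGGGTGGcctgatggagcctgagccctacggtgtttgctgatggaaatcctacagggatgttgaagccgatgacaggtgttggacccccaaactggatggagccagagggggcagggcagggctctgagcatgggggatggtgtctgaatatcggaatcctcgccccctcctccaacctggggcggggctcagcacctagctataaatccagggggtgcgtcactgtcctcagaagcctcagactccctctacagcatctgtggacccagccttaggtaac
Tnnc1: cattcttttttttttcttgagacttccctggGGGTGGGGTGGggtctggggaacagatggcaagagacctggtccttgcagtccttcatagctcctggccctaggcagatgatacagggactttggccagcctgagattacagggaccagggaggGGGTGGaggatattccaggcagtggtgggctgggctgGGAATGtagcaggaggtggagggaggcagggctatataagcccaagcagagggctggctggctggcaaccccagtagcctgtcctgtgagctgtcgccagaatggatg
Myh4: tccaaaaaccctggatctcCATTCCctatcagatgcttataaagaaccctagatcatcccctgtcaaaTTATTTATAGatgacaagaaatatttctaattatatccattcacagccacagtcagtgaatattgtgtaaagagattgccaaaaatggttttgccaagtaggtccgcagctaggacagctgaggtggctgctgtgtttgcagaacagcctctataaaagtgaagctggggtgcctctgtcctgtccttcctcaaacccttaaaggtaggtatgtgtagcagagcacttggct

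Each of these slow windows held a CACC box: 1 in Myh7, 2 in Tnni1, 1 in Tnnt1 and 3 in Tnnc1. Myl3 held 3 and Myl2 held 0, as did Myh1, Myh2 and Myh4. Of all 32851 windows in the table, 31.5% held at least 1. In each gene's first window, the MCAT motif matched once in Myh7, Tnnc1, Myh1 and Myh4, at 2 places in Myl3 and nowhere in Tnni1, Tnnt1, Myl2 and Myh2, against 14.7% of all windows. The second window of Myh7 held 0 MCAT matches. The MEF2 motif matched in Myh1 and Myh4 and in none of the slow windows, against 3.19% of all windows. E-boxes (CANNTG), left in lower case, matched in every window but those of Myh1 and Myh2, against 72.3% of all windows. A match describes these letters and is not a measured binding site.

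The spread between arrays of the same group set the slow genes apart in size. The pooled within-group SD of Myh7 was 0.71 log2 units, higher than in 99.8% of the 13747 genes tested. It was 0.54 for Tnnc1, 0.52 for Tnni1, 0.48 for Atp2a2, 0.43 for Myl3 and 0.40 for Tnnt1, each above the 98th percentile. Myl2 had 0.23, at the 81.0th percentile. Myh2 had 0.15, Myh1 0.09 and Myh4 0.05, at the 40.6th, 7.38th and 0.560th percentile. Since spread falls as signal rises, each was also set against the SD that limma's trend gives at the gene's own signal. This ratio was 4.62 for Myh7, between 1.49 and 3.6 for the other slow genes, 1.4 for Myh2, 0.904 for Myh1 and 0.583 for Myh4. Of the 7 slow genes, 6 lay above the 95th percentile of SD with all arrays, 5 without KO sedentary replicate 2 and 4 without KO sedentary replicate 3. The pooled SD hides differences between groups. The SD of Tnni1 was 0.58 in KO exercised, 0.84 in KO sedentary, 0.03 in WT exercised and 0.20 in WT sedentary arrays. That of Tnnt1 was 0.38, 0.68, 0.08 and 0.14 in the same order. WT spread was not small for every gene: in WT sedentary arrays Myh7 had 0.55 and Tnnc1 0.52. These are descriptions without a test.

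**Figure D2:**
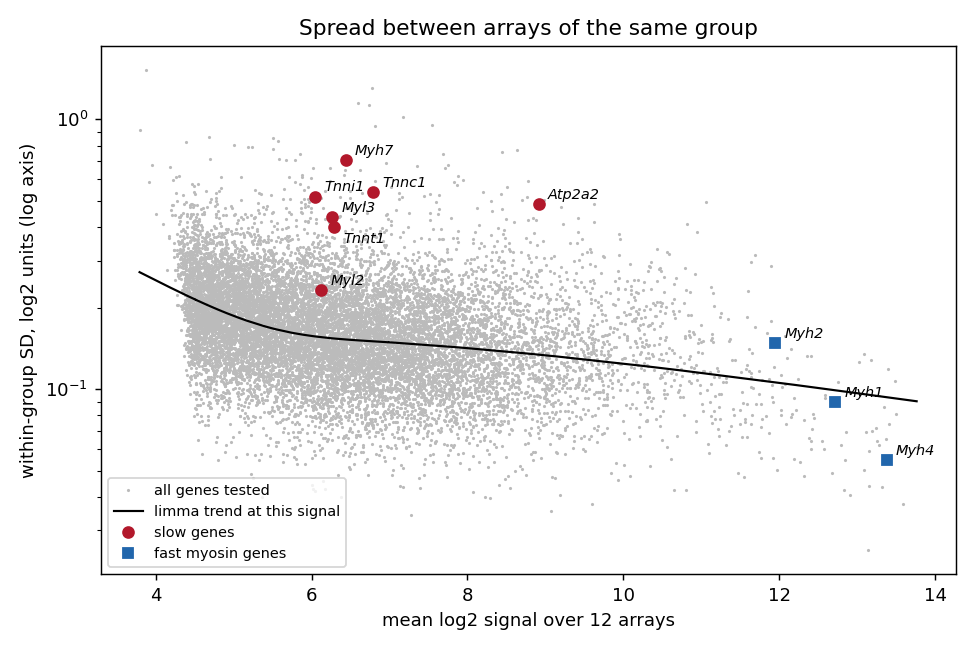
Pooled within-group SD (log2 units, log axis) against mean log2 signal over 12 arrays for all 13747 genes tested (grey), the 7 slow genes (red circles) and the 3 fast myosin genes (blue squares), with limma's trend as a line. Myh7 lies at 4.62 times the line and Myh4 at 0.583 times.

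The same few arrays were high for most slow genes. KO exercised replicate 1, KO exercised replicate 3 and KO sedentary replicate 3 had 7 of 7 slow genes above the gene's own 12-array mean, by 0.36, 0.72 and 0.69 log2 units on average. KO exercised replicate 2, KO sedentary replicates 1 and 2 and WT sedentary replicate 3 had 0 of 7 above it. KO sedentary replicate 2 was among the 3 lowest arrays for 7 of 7 slow genes, with a mean deviation of -0.70, and WT sedentary replicate 3 had -0.45. The mean deviation of the 3 fast genes stayed between -0.13 and 0.12 on all arrays. The arrays with 7 of 7 slow genes high were thus all KO, and both KO groups also held low arrays. The mean deviation of the slow genes in WT arrays lay between -0.45 and 0.06.

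**Figure D3:**
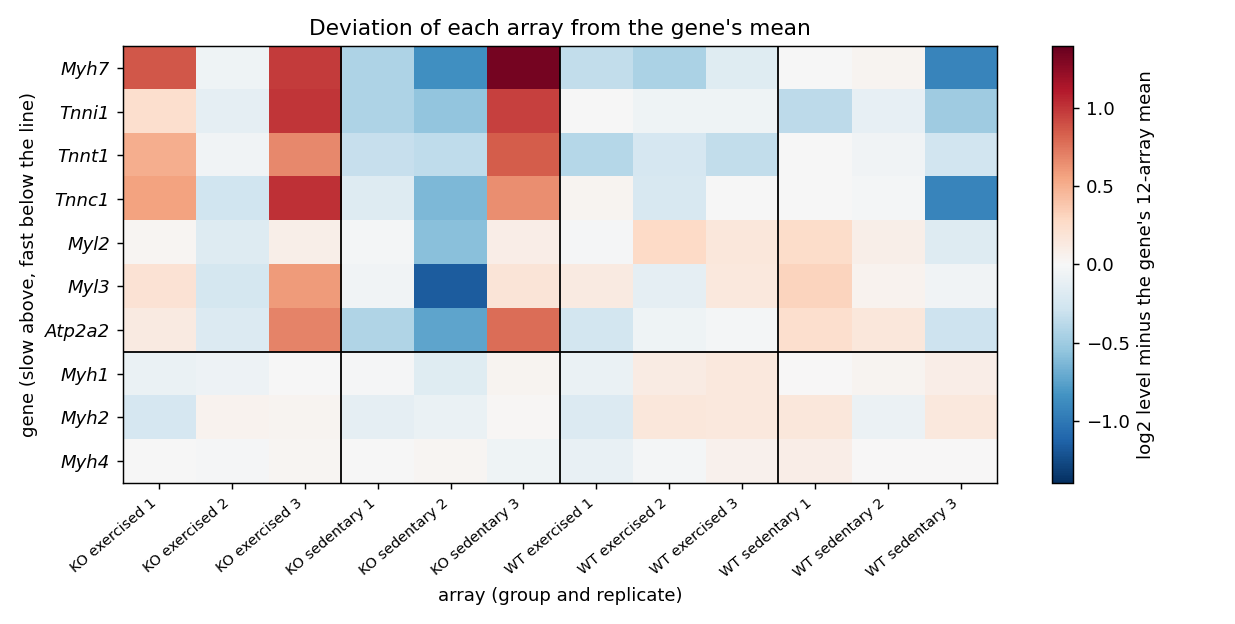
Deviation of each array from the gene's own 12-array mean (log2 units, red above, blue below) for the 7 slow and 3 fast genes, with arrays in columns by group. KO exercised replicates 1 and 3 and KO sedentary replicate 3 are red for 7 of 7 slow genes, and the fast rows are pale throughout.

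Markers of other cells moved with some of these arrays and not with others. The matrix and fibroblast markers (14 of 15 listed genes tested) lay 0.87 above their 12-array mean in KO sedentary replicate 3, but at -0.21 and -0.29 in KO exercised replicates 1 and 3, where the slow genes were also high. Their log2 summed signal was 13.40 to 13.51 in KO exercised, 13.54 to 14.24 in KO sedentary, 13.51 to 13.70 in WT exercised and 13.46 to 13.61 in WT sedentary arrays. The Schwann cell and nerve markers (7 of 10 tested) lay at -0.47 and 0.39 in KO exercised replicates 1 and 3 and at 0.72 in KO sedentary replicate 3. They were highest, at 0.91, in WT exercised replicate 1, where the slow genes lay at -0.12. These markers also lay at 0.64 in KO exercised replicate 2, where the slow genes lay at -0.16. Their log2 summed signal was 8.85 to 10.36 in KO exercised, 9.0 to 10.50 in KO sedentary, 8.81 to 10.59 in WT exercised and 8.80 to 9.26 in WT sedentary arrays. No marker was listed at 0. The part of these markers in the slow genes' levels was not tested.

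Across the 12 arrays, the levels of the slow genes were correlated with each other. Of their 21 pairs, 13 passed by Pearson's r and 11 by Spearman's rho in a permutation test with adjustment over all 45 pairs of the 10 genes, and the median r was 0.800. The split into 5 and 2 slow genes that follows was made after these values were seen, so its ranges are a description. Among Myh7, Tnni1, Tnnt1, Tnnc1 and Atp2a2, Pearson's r over the 10 pairs lay between 0.822 and 0.946, and 10 of 10 passed (permutation, largest adjusted p = 0.006). Spearman's rho lay between 0.503 and 0.888, and 8 of 10 passed (permutation, adjusted p up to 0.222). The pair of Myh7 and Tnnt1 had r = 0.946 and rho = 0.804 (permutation p = 7e-05 and 0.00244, adjusted p = 0.00117 and 0.0183). Without the 2 arrays farthest from the median of the first-listed gene of each pair, r over the 10 pairs lay between 0.545 and 0.910. With group means removed it lay between 0.854 and 0.954, so the likeness did not rest on differences between group means alone. This r pools the groups, and groups with wide spread weigh most in it. The SD of Tnni1, for example, was 0.84 in KO sedentary and 0.03 in WT exercised arrays. Likeness within each single group was not tested.

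Myl2 and Myl3 had lower values with these genes over the 12 arrays. Their 10 pairs with the same 5 genes had r between 0.269 and 0.770, of which 2 passed by r and 3 by rho in the permutation test, and with group means removed r lay between 0.603 and 0.828. Myl2 and Myl3 had r = 0.800 with each other (permutation p = 0.00969, adjusted p = 0.0363) and rho = 0.559 (p = 0.0636, adjusted p = 0.168). With group means removed their r was 0.825. It was 0.186 without the 2 arrays farthest from the median of Myl2, so the value over 12 arrays depended on those arrays. Of the 21 pairs of a slow and a fast gene, 0 passed by r or rho in the permutation test, with r between -0.294 and 0.636. Their smallest unadjusted p was 0.0227 by r and 0.0275 by rho, for Myl2 and Myh1. Myh1 and Myh2 had r = 0.708 (permutation p = 0.0112, adjusted p = 0.0386) and rho = 0.692 (p = 0.015, adjusted p = 0.052). A p above the threshold does not show that a pair is unrelated.

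**Figure D4:**
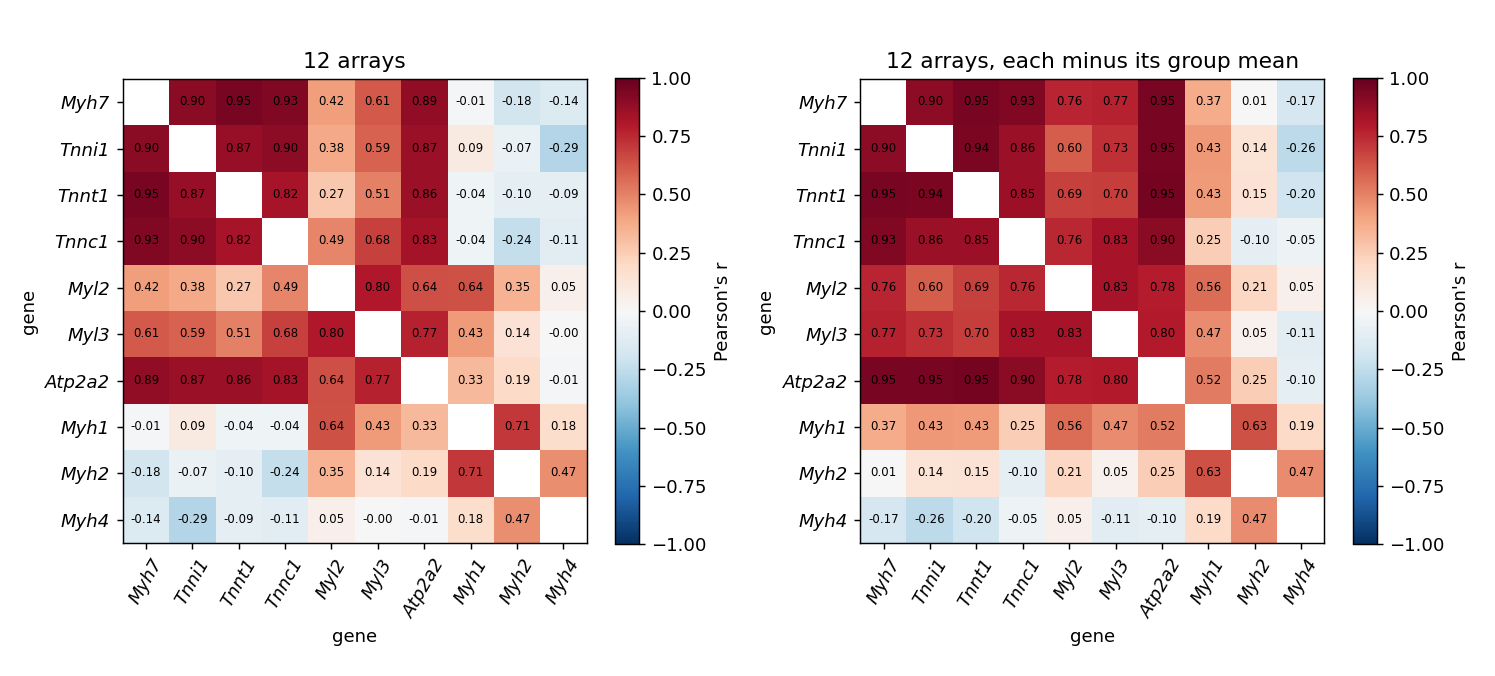
Pearson's r between the 10 genes over the 12 arrays (left) and after each array's group mean was subtracted (right), from -1 (blue) to 1 (red). The block of Myh7, Tnni1, Tnnt1, Tnnc1 and Atp2a2 is red in both, with r from 0.822 to 0.946 on the left.

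Of the 13737 other genes tested, the 10 most like the mean of the slow genes, by r over 12 arrays with group means removed, included Tpm3 at 0.913. Tpm3 encodes the tropomyosin of slow fibres, and its rank was 6. Its levels were 7.67, 7.47 and 8.28 in KO exercised, 7.07, 7.23 and 8.62 in KO sedentary, 7.46, 7.14 and 7.52 in WT exercised and 7.45, 7.5 and 6.76 in WT sedentary arrays (log2). As with Myh7, KO sedentary replicate 3 was the highest array and WT sedentary replicate 3 the lowest. The other 9 were Slc5a6 (0.943), Ccdc160, Adnp2, Ttl, H2ac10, Exosc2, Timp1, Cthrc1 and Egln2 (0.905). The 5 least like were B4galt3 (-0.888), Fam136a, Slc39a11, Gm13271 and Snx29 (-0.874). Sln, which encodes the SERCA inhibitor sarcolipin, ranked 234th with r = 0.683, and Car3, the carbonic anhydrase gene of slow fibres, ranked 13331st with -0.594. Tpm3, Sln and Car3 belong to a list of 16 further slow-fibre genes, described below. In that list Casq2 had r = 0.50, and the remaining genes lay between -0.19 and 0.25, so most of the list did not follow the slow genes. Among so many genes, values of this size at the extremes of the ranking are no finding on their own.

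For the fast myosins, likeness was ranked in the same way, over 12 arrays with group means removed. Myh1 was most like Myom2, an M-band protein gene (0.952), followed by Mtrf1l, Ptprc, Usp16 and Bbs1 (0.933). Myh2 was most like Dennd10 (0.983), Nbeal1, Mid2, Fam120a and C2cd2l (0.974). Myh4 was most like Fam210b (0.980), Harbi1, Mccc2, Atp5md and Rrm2b (0.955). The fast genes varied so little that these values describe differences of at most 0.40 log2 units.

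The first comparison asked how exercise changed these genes in the REDD1 knockout. In KO muscle, 0 of 10 were called by limma at an adjusted p under 0.05, against 0.276% of all genes tested, and 0 of 10 had an unadjusted p under 0.05, against 8.93%. The log2 fold change, KO exercised minus KO sedentary, was positive for 7 of 7 slow genes, with a median of 0.38, against -0.0023 over all genes tested. It was 0.58 for Myh7 (SE 0.43, 95% interval -0.34 to 1.5), 0.53 for Myl3 (SE 0.27, limma adjusted p = 0.626, the smallest of the 10), 0.49 for Tnnc1 (SE 0.33), 0.38 for Tnni1 (SE 0.32), 0.34 for Atp2a2 (SE 0.30), 0.33 for Tnnt1 (SE 0.25) and 0.15 for Myl2 (SE 0.16). SEs and intervals in this and the later comparisons rest on a spread pooled over all 4 groups, WT included. The SD of Myh7 was 0.57 in KO exercised and 1.16 in KO sedentary arrays. In WT exercised arrays it was 0.14, and in WT sedentary arrays 0.55. The interval of Myh7 may thus be too narrow for a comparison within KO. The groups overlapped for 10 of 10 genes, while 13.9% of all genes tested had groups without overlap. The values moved with single KO arrays: Myh7 stood at 0.14 without KO sedentary replicate 2 and at 1.24 without KO sedentary replicate 3, and Myl2 turned to -0.05 without KO sedentary replicate 2. Without that array Myl3 stood at 0.12, Tnnt1 at 0.12 and Atp2a2 at 0.03, and without KO exercised replicate 3 Tnni1 stood at 0.06 and Tnnc1 at 0.20. Without KO sedentary replicate 3, Tnni1 stood at 0.86, Tnnt1 at 0.72 and Atp2a2 at 0.79. Markers of other cells had mostly negative values in the same comparison: 1 of 14 matrix and fibroblast genes was positive (median -0.49), 0 of 9 smooth muscle and pericyte genes (-0.23), 1 of 9 leukocyte genes (-0.15), 1 of 10 endothelial genes (-0.25) and 2 of 8 adipocyte genes (-0.05), against 6 of 7 Schwann cell genes (0.16). Their part in the slow genes' values was not tested. The fast myosins lay between -0.01 and 0.01.

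In WT muscle the same comparison gave values of both signs. By limma 0 of 10 genes were called, against 0.567% of all genes tested, and 0 of 10 had an unadjusted p under 0.05, against 8.21%. WT exercised minus WT sedentary was positive for 3 of 7 slow genes, with a median of -0.03, against -0.02 over all genes. Tnni1 was at 0.28 (SE 0.32, limma adjusted p = 0.899), and its WT exercised arrays lay above the WT sedentary arrays without overlap, 1 of 10 genes against 5.75% of all genes tested in that direction. The share in either direction, at least as large, is not given here. Tnnc1 was at 0.25 (SE 0.33), and at -0.05 without WT sedentary replicate 3, while Tnnt1 was at -0.22 (SE 0.25). Myh7 was at -0.03 with a 95% interval of -0.95 to 0.89. These SEs and intervals rest on a spread pooled over all 4 groups, KO included. The SD of Tnni1 was 0.03 in WT exercised and 0.20 in WT sedentary arrays. The fast myosins lay between -0.06 and 0.01.

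Whether the exercise effect depended on REDD1 was tested by the difference of both effects, KO minus WT. It was positive for 7 of 7 slow genes, from 0.06 for Myl2 to 0.60 for Myh7, with a median of 0.49, against 0.02 over all genes. By limma 0 of 10 were called (adjusted p = 0.997 for each), against 0% of all genes tested, and 0 of 10 had an unadjusted p under 0.05, against 4.51%. The 95% interval was -0.70 to 1.90 for Myh7 and -0.22 to 1.31 for Tnnt1 (difference 0.55, SE 0.36). Without KO exercised replicate 3, Tnni1 was at -0.22 and Tnnc1 at -0.06, and without KO sedentary replicate 2, Myl2 was at -0.14. Other values also moved with 1 array: without KO sedentary replicate 2 Myh7 was at 0.17, Myl3 at 0.17, Atp2a2 at 0.18 and Tnnt1 at 0.34, and without KO sedentary replicate 3 Myh7 was at 1.26, Atp2a2 at 0.94 and Tnnt1 at 0.94. Markers of other cells had mostly negative values: the difference was positive for 0 of 14 matrix and fibroblast genes (median -0.54), 0 of 9 smooth muscle and pericyte genes (-0.36), 0 of 9 leukocyte genes (-0.31), 1 of 8 adipocyte genes (-0.35), 1 of 7 Schwann cell genes (-0.28) and 2 of 10 endothelial genes (-0.12). None of those genes was called for the difference, and their part in the slow genes' values was not tested. The fast myosins lay between -0.02 and 0.07, with intervals inside -0.27 to 0.37.

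In exercised muscle, the largest KO minus WT values were those of Myh7 and Tnnt1, and neither was called over all genes. By limma 0 of 10 were called, against 0.175% of all genes tested, and 2 of 10 had an unadjusted p under 0.05, against 6.58%. Tnnt1 averaged 6.67 ± 0.38 in KO exercised and 5.96 ± 0.08 in WT exercised arrays (SD, n = 3 each), a log2 fold change of 0.71 (SE 0.25, 1.64-fold, limma adjusted p = 0.558). Myh7 averaged 7.04 ± 0.57 in KO exercised and 6.11 ± 0.14 in WT exercised arrays, a log2 fold change of 0.92 (SE 0.43, 1.89-fold, limma adjusted p = 0.759). Both had KO exercised arrays above WT exercised arrays without overlap, 2 of 10 genes against 6.06% of all genes tested in that direction. The share in either direction, at least as large, is not given here. With any 1 array left out, Tnnt1 lay between 0.56 and 0.92 and Myh7 between 0.73 and 1.25, all uncalled.

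The other slow genes had overlapping groups in that comparison. Tnnc1 was at 0.50 (SE 0.33), Tnni1 at 0.41 (SE 0.32), Atp2a2 at 0.33 (SE 0.30), Myl3 at 0.13 (SE 0.27) and Myl2 at -0.16 (SE 0.16). Without KO exercised replicate 3, Tnnc1 was at 0.21, Tnni1 at 0.10, Atp2a2 at 0.08 and Myl3 at -0.07. Without KO exercised replicate 2, Tnnc1 was at 0.86, Tnni1 at 0.66 and Atp2a2 at 0.53. Over the 7 slow genes, 6 were positive and the median was 0.41, against -0.0021 over all genes. Myh1 was at -0.11, Myh2 at -0.09 and Myh4 at 0.03, with 95% intervals inside -0.32 to 0.16. This comparison and the exercise effect in KO share the KO exercised arrays, so their values are not independent.

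In sedentary muscle, KO minus WT turned sign for 4 of the slow genes without KO sedentary replicate 3, and for Atp2a2 without KO sedentary replicate 2. By limma 0 of 10 genes were called, against 0.138% of all genes tested, and 0 of 10 had an unadjusted p under 0.05, against 7.7%. Slow genes were positive in 4 of 7, with a median of 0.16, against -0.02 over all genes. Myh7 was at 0.32 (SE 0.43), Tnni1 at 0.32 (SE 0.32), Tnnc1 at 0.26 (SE 0.33) and Tnnt1 at 0.16 (SE 0.25). These SEs rest on the pooled spread, while the SD of Myh7 in KO sedentary arrays was 1.16. Without KO sedentary replicate 3, which also had high matrix and fibroblast markers, Myh7 was at -0.34, Tnni1 at -0.16, Tnnc1 at -0.09 and Tnnt1 at -0.23. Tnnc1 also turned sign, to -0.04, without WT sedentary replicate 3. Myl3 was at -0.45 (SE 0.27, limma adjusted p = 0.751), Myl2 at -0.23 (SE 0.16) and Atp2a2 at -0.16 (SE 0.30), and Atp2a2 turned to 0.15 without KO sedentary replicate 2. The groups overlapped for 10 of 10 genes, while 13.1% of all genes tested had groups without overlap. The fast myosins were at -0.15 for Myh2, -0.09 for Myh1 and -0.05 for Myh4.

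**Figure D5:**
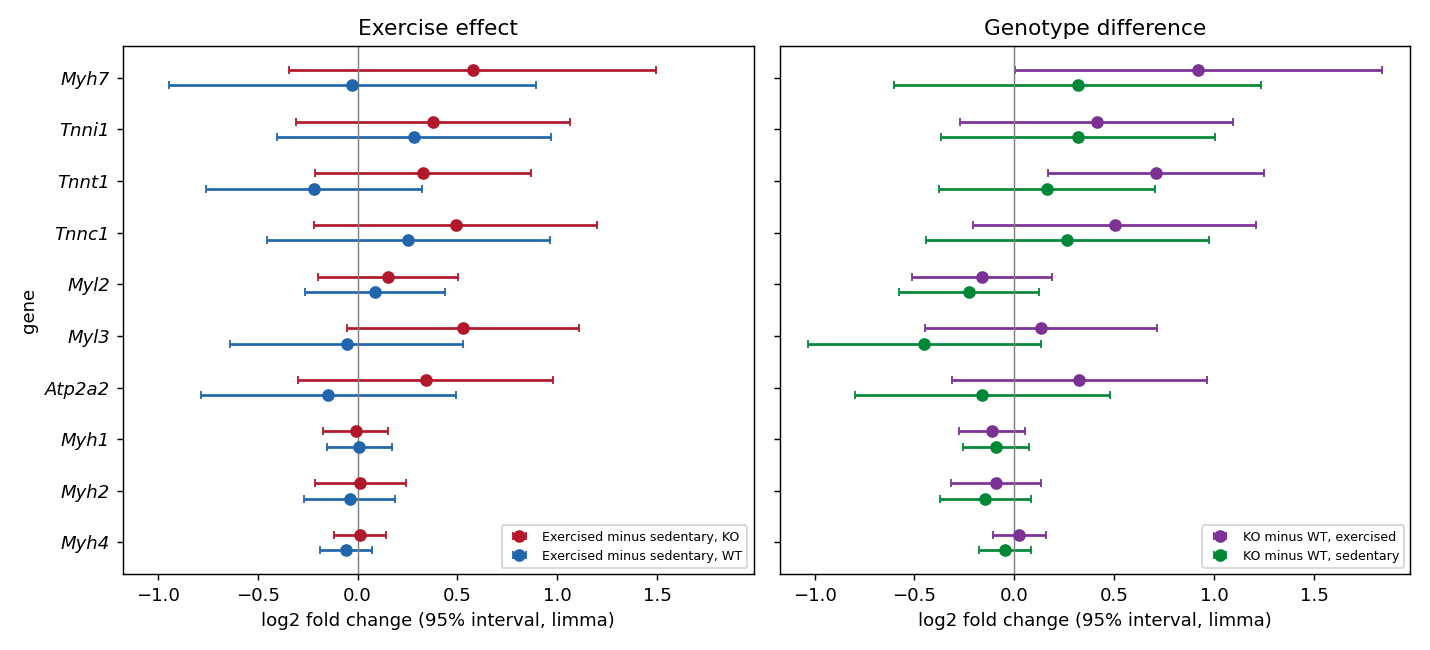
Log2 fold changes with limma's 95% intervals for the 10 genes. The left panel gives exercised minus sedentary in KO and in WT, and the right panel KO minus WT in exercised and in sedentary muscle. Intervals of the slow genes are wide, up to -0.95 to 0.89 for Myh7 in WT, and those of the fast myosins narrow.

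Averages over both levels of the other factor, with 6 arrays on each side, called none of the 10 genes either. For exercised minus sedentary, limma called 0 of 10, against 1.6% of all genes tested, and 0 of 10 had an unadjusted p under 0.05, against 11.2%. Slow genes were positive in 7 of 7, from 0.05 for Tnnt1 to 0.37 for Tnnc1 (SE 0.24, adjusted p = 0.609), with a median of 0.24, against -0.01 over all genes. For KO minus WT, limma called 0 of 10, against 0.546% of all genes tested, and 1 of 10 had an unadjusted p under 0.05, against 9.36%. Tnnt1 was at 0.44 (SE 0.18, limma adjusted p = 0.444) and Myh7 at 0.62 (SE 0.30, adjusted p = 0.563). Without KO sedentary replicate 3, Tnnt1 was at 0.24 and Myh7 at 0.29. Slow genes were positive in 5 of 7, with a median of 0.36, against -0.0070 over all genes. The fast myosins were negative in 3 of 3, between -0.12 and -0.01.

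A further list of 16 genes, chosen as slow-fibre genes, was tested, and all were measured. Their levels differed widely in this largely fast muscle. Sln lay between 4.52 and 7.34, Mb between 12.60 and 12.74 and Car3 between 13.18 and 13.41, against 5.51 to 7.78 for Myh7 (log2). Whether each member is confined to slow fibres was not tested, so calls and medians of this list need not describe slow fibres alone. Of the 16, Lmod2 was the 1 called. Lmod2 encodes leiomodin 2, which lengthens thin filaments. It was at 11.49, 11.73 and 11.47 in KO exercised, 11.08, 11.02 and 11.18 in KO sedentary, 11.18, 10.94 and 11.08 in WT exercised and 10.58, 10.79 and 10.76 in WT sedentary arrays (log2). The KO exercised arrays were the highest and the WT sedentary arrays the lowest. Lmod2 was higher after exercise, averaged over genotypes (log2 fold change 0.41, SE 0.07, limma adjusted p = 0.00349; 1 of 16 called, against 1.6% of all genes tested), and higher in KO, averaged over conditions (0.44, SE 0.07, adjusted p = 0.00476; 1 of 16, against 0.546%). Both calls held under 18 of 19 alternative settings. It was also higher in KO exercised than in WT exercised muscle (0.50, SE 0.09, adjusted p = 0.0495; 1 of 16, against 0.175%), a call that held under 3 of 20 alternatives (adjusted p 0.0205 to 0.26). Its r with the mean of the 7 slow genes above was -0.09 over 12 arrays with group means removed. Over the list of 16, the median log2 fold change was 0.03 for exercise in KO (10 positive), 0.10 for exercise in WT (12 positive), -0.02 for KO minus WT in exercised muscle (8 positive) and 0.08 in sedentary muscle (11 positive).

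Other genes of fast fibres made a list of 15, all measured, of which Mylk2 was called. Mylk2 encodes skeletal myosin light chain kinase, which phosphorylates the fast regulatory light chain. It was at 11.41, 11.35 and 11.17 in KO exercised, 11.45, 11.40 and 11.41 in KO sedentary, 10.86, 10.88 and 10.64 in WT exercised and 11.21, 11.16 and 11.15 in WT sedentary arrays (log2). KO arrays lay above the WT arrays of the same condition without overlap, as did 6.06% of all genes tested in exercised muscle, while 13.1% had groups without overlap in either direction in sedentary muscle. Mylk2 was higher in KO averaged over conditions (log2 fold change 0.38, SE 0.06, limma adjusted p = 0.0067; called under 18 of 19 alternatives) and in exercised muscle (0.51, SE 0.08, adjusted p = 0.0188; called under 14 of 20). This was 1 of 15 called in each, against 0.546% of all genes tested averaged over conditions and 0.175% in exercised muscle. For exercise in KO, exercise in WT, the difference of both and KO minus WT in sedentary muscle, 0 members of either list were called. Over the fast list of 15, the median log2 fold change was -0.0021 for exercise in KO (7 positive), -0.0099 for exercise in WT (5 positive), 0.0002 for KO minus WT in exercised muscle (8 positive) and -0.01 in sedentary muscle (4 positive). Of 15 measured sarcomere genes not tied to a fibre type, 0 were called in any of the 7 comparisons.

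Of 28 measured regulators of fibre type, 2 were called, both for exercise: 1 in KO, against 0.276% of all genes tested, 1 in WT, against 0.567%, and 2 averaged over genotypes, against 1.6%. Ppargc1a, the coactivator that promotes oxidative fibres, was at 10.75, 11.003 and 10.95 in KO exercised, 8.70, 9.61 and 9.29 in KO sedentary, 10.15, 10.46 and 10.88 in WT exercised and 9.33, 8.98 and 9.24 in WT sedentary arrays (log2). Exercised arrays lay above sedentary arrays in both genotypes without overlap, against 13.9% of all genes without overlap in either direction in KO and 5.75% higher in WT. Ppargc1a rose by 1.70 in KO (SE 0.20, limma adjusted p = 0.001) and by 1.31 in WT (SE 0.20, adjusted p = 0.00429). Each call held under 19 of 20 alternatives. Analysis of variance without moderation did not call Ppargc1a (adjusted p = 0.128 in KO and 0.172 in WT). Myod1, the myogenic factor gene more active in fast fibres, fell by 0.63 averaged over genotypes (SE 0.10, adjusted p = 0.00349; called under 18 of 19 alternatives).

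In the lists of other cells, 2 of 10 endothelial genes were called: 1 for exercise in KO, against 0.276% of all genes tested, 1 in WT, against 0.567%, and 2 averaged over genotypes, against 1.6%. Kdr, the VEGF receptor gene, was lower after exercise in KO (log2 fold change -0.84, limma adjusted p = 0.00492) and in WT (-0.76, adjusted p = 0.00582). Each of these calls held under 19 of 20 alternatives, and neither by analysis of variance without moderation (adjusted p = 0.12 in KO and 0.103 in WT). Cdh5, the vascular cadherin gene, was lower averaged over genotypes (-0.28, limma adjusted p = 0.0448, called under 3 of 19 alternatives). In the 7 comparisons 0 were called of the 10 skeletal muscle, 7 heart, 14 matrix, 7 Schwann cell, 9 smooth muscle and pericyte, 9 leukocyte, 8 adipocyte and 7 housekeeping genes tested.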

How the data were processed

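RNA of the plantaris was measured on 12 Affymetrix whole-transcript arrays, 3 per group. Per the labels' protocols, total RNA was labelled by a whole-transcript method. The submitters' processing notes name Partek, with no version or step. The deposited table gives what its range (0.36 to 13.86) shows to be log2 expression values, and its log base, background correction, normalisation and summarisation by the authors are not given in the sources used here. Fold values depend on that base.

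Of 41345 rows, 23521 have 1 gene symbol, 1814 several and 16010 none in the platform annotation. Gene IDs of 23328 rows matched RefSeq's GRCm38.p6 table, which changed 0 symbols. The row with the highest mean was kept per gene. Genes entered the test when above 4.56, the table median, on at least 3 arrays.

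A single limma 3.58.1 fit in R 4.3.3 (lmFit, eBayes with intensity trend) covered 12 arrays with 1 mean per group. From it came 7 contrasts, with Benjamini-Hochberg adjustment over 13747 genes and calls at an adjusted p under 0.05. The fit was tested on simulated data. Correlations used two-sided permutation tests with 100000 resamples, adjusted over 45 pairs. Alternatives changed scaling, filter, moderation, row choice, fitted groups and arrays. Rows with several symbols or none were left out. The number of arrays limits the precision.

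The 10 genes and the lists (other slow and fast fibre genes, sarcomere genes, fibre-type regulators, skeletal muscle, heart, matrix, Schwann cell, endothelial, smooth muscle, leukocyte, adipocyte and housekeeping genes) were chosen with earlier results of these data known. Named from those lists were the called genes, Tpm3, Sln, Car3 and Casq2 for likeness, and genes that check the tissue. Sln, Car3 and Casq2 were chosen after their values were seen.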

Additional observations from a re-analysis of the deposited data

How the results depend on the processing

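Of 70 member values (10 genes in 7 comparisons), 0 were called by limma in the fit reported or under any alternative (smallest adjusted p = 0.105). Of the recomputed values 84 turned sign, in 30 of the 70; the filter, the trend, the analysis of variance, the row choice (each member has 1 row), the choice of fitted groups and leaving out an array of a group not compared leave a fold change as it is by construction. The largest value that turned was 0.32, so small values have no settled direction. With arrays centred on their median, these values turned sign: in exercise in KO Myh1 (0.0056) and in exercise averaged over genotypes Myh2 (0.0015). With quantile normalisation, these values turned sign: in exercise in KO Myh2 (-0.053) and Myh4 (-0.015), in exercise in WT Myh1 (-0.030), in the difference of exercise effects Myh2 (-0.0057) and in exercise averaged over genotypes Myh1 (-0.038). Without KO sedentary replicate 3 and WT exercised replicate 1 together, chosen after seeing the data, these values turned sign: in exercise in KO Myh1 (0.035) and Myh4 (-0.013), in exercise in WT Myh2 (0.075), in the difference of exercise effects Myh2 (-0.020), in KO minus WT in exercised muscle Myh4 (-0.014), in KO minus WT in sedentary muscle Myh7 (-0.34), Tnni1 (-0.16), Tnnt1 (-0.23) and Tnnc1 (-0.091), in exercise averaged over genotypes Myh2 (0.065) and in KO minus WT averaged over conditions Atp2a2 (-0.18). With 1 array left out at a time, 66 values turned sign. For exercise in KO, the log2 fold change spanned -0.051 to 0.28 for Myl2, -0.069 to 0.035 for Myh1, -0.033 to 0.11 for Myh2 and -0.013 to 0.036 for Myh4. For exercise in WT, the log2 fold change spanned -0.34 to 0.14 for Myh7, -0.048 to 0.41 for Tnnc1, -0.027 to 0.19 for Myl2, -0.13 to 0.050 for Myl3, -0.036 to 0.084 for Myh1 and -0.12 to 0.075 for Myh2. For the difference of exercise effects, the log2 fold change spanned -0.22 to 0.58 for Tnni1, -0.058 to 0.59 for Tnnc1, -0.14 to 0.20 for Myl2, -0.094 to 0.027 for Myh1 and -0.060 to 0.15 for Myh2. For KO minus WT in exercised muscle, the log2 fold change spanned -0.074 to 0.35 for Myl3, -0.21 to 0.0003 for Myh2 and -0.014 to 0.066 for Myh4. For KO minus WT in sedentary muscle, the log2 fold change spanned -0.34 to 0.75 for Myh7, -0.16 to 0.59 for Tnni1, -0.23 to 0.37 for Tnnt1, -0.091 to 0.55 for Tnnc1 and -0.61 to 0.15 for Atp2a2. For exercise averaged over genotypes, the log2 fold change spanned -0.048 to 0.25 for Tnnt1, -0.056 to 0.32 for Atp2a2, -0.029 to 0.038 for Myh1 and -0.051 to 0.045 for Myh2. For KO minus WT averaged over conditions, the log2 fold change spanned -0.29 to 0.046 for Myl3, -0.14 to 0.24 for Atp2a2 and -0.029 to 0.011 for Myh4. The cause was not tested.

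Counts over all genes moved as follows. For exercise in KO the 38 calls became 24 without the intensity trend, 25 with only the compared groups in the fit and 0 by analysis of variance without moderation, where limma gave an unadjusted p under 0.05 to 1227 genes. By that analysis of variance the counts were 12 for exercise in WT (78 by limma), 1 for KO minus WT in exercised muscle (24), 1 in sedentary muscle (19), 67 for exercise averaged (220) and 23 for KO minus WT averaged (75). The last was 42 without the trend and 139 without both arrays named above. In exercised muscle, KO minus WT gave 13 with only the compared groups and 45 without those arrays. With 1 array left out, counts were 16 to 71 for exercise in KO (71 without WT exercised replicate 1, and 16, 19 and 20 without KO exercised replicate 1, KO exercised replicate 3 and KO sedentary replicate 1). They were 46 to 90 for exercise in WT (46 without WT exercised replicate 3 or WT sedentary replicate 1) and 0 to 0 for the difference. In exercised muscle, KO minus WT gave 5 to 40 (5 without WT exercised replicate 3, 7 and 13 without KO exercised replicates 1 and 2, 12 without WT exercised replicate 2 and 40 without WT exercised replicate 1). In sedentary muscle they were 6 to 27 (6 without KO sedentary replicate 1, 12 without WT sedentary replicate 1). They were 144 to 220 for exercise averaged (144 without WT exercised replicate 3 or WT sedentary replicate 1). They were 38 to 149 for KO minus WT averaged (149 without WT exercised replicate 1, and 38 to 45 without KO exercised replicate 1 or 2, KO sedentary replicate 2, WT exercised replicate 2 or 3, or WT sedentary replicate 2 or 3). The number of slow genes above the 95th percentile of spread was 4 to 6, and the median r of the 21 slow pairs 0.757 to 0.819. No paired analysis was possible because the labels number the samples 1 to 12 in 1 run and the replicate numbers pair nothing.

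With 3 arrays a group, the 95% intervals of the slow genes are wide, and a p above the threshold does not show that a gene did not differ. Whether probes tell the myosin paralogs apart was not tested.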
